A study of Homo sapiens with 6 samples.

Results

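CpG-poor promoters were read in A375 cells, a human melanoma line, by ATAC-seq, which counts the DNA fragments that the Tn5 transposase cuts out of open chromatin. Of the 152800 peaks in the deposited table, 2720 (1.78%) were such promoters. A peak was a member if it lay on chromosomes 1 to 22 or X, if its centre was no more than 500 bp from a protein-coding transcript's start (GENCODE release 44), and if its hg38 sequence held CpG dinucleotides at under 0.4 of the number expected from its C and G content. Peaks with coding start sites on both strands within 1000 bp of the centre were left out. The members were assigned to 2348 genes and made up 18.6% of the 14601 promoter peaks with coding start sites on 1 strand.

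Most human promoters sit in CpG islands, which stay unmethylated and open in many cell types and carry sites for broadly expressed factors. Promoters outside islands are often methylated where silent. They are typical of genes used in 1 tissue or switched on by a signal, and their start sites are more often set by a TATA box or by sites for inducible factors such as AP-1, the dimer of FOS and JUN proteins.

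The comparison was between 3 libraries of A375 cells that carried an empty vector and 3 libraries of A375 cells that overexpressed HMGB2 (HMGB2OE), a chromatin protein that binds and bends DNA with little sequence preference. Stable lines were made by lentiviral transduction, how many lines stand behind each condition is not given in the sources used here, and the study describes its 3 libraries per condition as technical replicates of an experiment that was not repeated. All p-values below therefore measure the spread between libraries only. The peaks hold no readout of how much HMGB2 was made. Counts in peaks ranged from 26910189 to 45645294 per library. Replicates of a condition differed by more than counting noise, so none was a copy of another. Of 7 melanocyte lineage markers, the promoters of MITF, SOX10 and PMEL had peaks. The most open peak of each had a mean normalized count of 862 to 3768. Those of MLANA, TYR, TYRP1 and DCT had none. The authors called peaks against a public melanocyte dataset, so a missing peak does not show that a promoter was closed. Marker promoters of other cell types had peaks for 1 of 5 keratinocyte, 3 of 6 fibroblast, 1 of 6 T and B cell, 1 of 4 macrophage and 1 of 4 endothelial genes. Only the most open promoter peak of each marker was read, and none of these was called.

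The sequences of 3 members show what these promoters look like. They are windows of 200 bases from hg38, printed 5′ to 3′ on the strand of the gene, with each match to the AP-1 word (TGACTCA or its complement TGAGTCA) or to the TATA word (TATAAA or its complement TTTATA) in capitals. S100A2 is the most accessible member. The others belong to members whose accessibility differed between the conditions, upwards for CST2 and downwards for MPP7.

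S100A2, chr1:153566656-153566855, minus strand: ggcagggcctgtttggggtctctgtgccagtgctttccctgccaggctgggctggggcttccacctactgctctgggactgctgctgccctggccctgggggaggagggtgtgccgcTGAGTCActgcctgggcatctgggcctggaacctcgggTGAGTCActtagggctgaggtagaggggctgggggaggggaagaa
CST2, chr20:23826809-23827008, minus strand: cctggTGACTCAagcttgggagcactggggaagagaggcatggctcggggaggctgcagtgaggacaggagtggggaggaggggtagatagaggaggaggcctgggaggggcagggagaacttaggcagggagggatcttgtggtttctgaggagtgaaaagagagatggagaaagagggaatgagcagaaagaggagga
MPP7, chr10:28334387-28334586, minus strand: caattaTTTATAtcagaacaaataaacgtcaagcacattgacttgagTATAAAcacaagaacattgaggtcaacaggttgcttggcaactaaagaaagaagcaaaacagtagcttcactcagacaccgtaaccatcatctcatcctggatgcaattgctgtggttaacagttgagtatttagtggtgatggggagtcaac

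Counted from 0 at the start site, the AP-1 words of S100A2 began at 17 and 55 and that of CST2 at -274. The TATA words of MPP7 began at -94 and -53, further upstream than a working TATA box usually lies. The MPP7 peak also held 1 AP-1 word outside the printed window. The windows held 1 (CST2) or 2 (S100A2 and MPP7) CpG dinucleotides.

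Members had a median of 7 CpG per peak, against 49 in the 10757 CpG-rich promoters (ratio of 0.6 or more, start sites on 1 strand). Their median GC content was 50.8%, with quartiles of 44.2% and 58.0%, and lay between that of all peaks (46.2%) and that of CpG-rich promoters (68.7%). In 28 members there was no CpG at all. The choice of members used only these sequence properties and the distance to a start site. At the limit of the CpG ratio, CDC14A and TM4SF19 lay just inside, with mean normalized counts of 258 ± 14.4 and 487 ± 38.2 (SD, n = 3) in empty vector cells and 206 ± 1.53 and 476 ± 11.5 in HMGB2OE cells. MPG and LPAR4 lay just outside, with 608 ± 23.6 and 64.4 ± 11.5 in empty vector cells and 578 ± 23.4 and 49.5 ± 8.32 in HMGB2OE cells.

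The centre was upstream of the nearest start site in 1659 members (61.0%) and within 100 bp of it in 1153 (42.4%). Members centred from 250 bp upstream to the start site had a median normalized count of 152, against 109 for those further upstream and 102 for those more than 250 bp downstream. A gene had 1 member in 2040 cases and 2 or more in 308, with 5 each for ADGRG1, an adhesion G protein-coupled receptor, ATF7IP, a partner of the H3K9 methyltransferase SETDB1, and SEPTIN9, a cytoskeletal GTPase. The start site of an antisense long non-coding RNA lay within 1000 bp in 127 members (4.67%). ATAC-seq counts carry no strand, so the opening of such pairs of start sites cannot be told apart.

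CpG-poor promoters were less open than the others. Their median normalized count, taken as the mean of the 6 libraries, was 136 with quartiles of 71.8 and 314, against 275 for the 1124 promoters with a CpG ratio of 0.4 to 0.6, 660 for CpG-rich promoters and 926 for the 1524 with coding start sites on both strands. The median over all peaks was 103. The boxes of normalized counts by promoter class show that the distributions overlap, and 203 of 1276 members that share a gene with a CpG-rich or both-strand promoter were more open than that promoter.

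**Figure D1:**
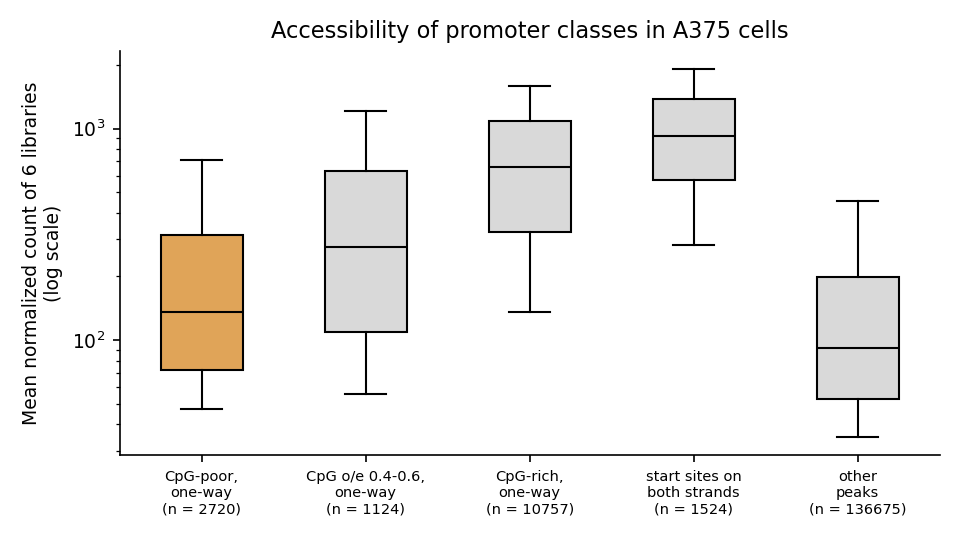
Mean normalized ATAC-seq count of 6 libraries (log axis) for CpG-poor promoters, the other promoter classes and all other peaks; boxes give the median and quartiles, whiskers the 10th and 90th percentiles. CpG-poor promoters have a median of 136, below the 660 of CpG-rich promoters.

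The most open members reached the range of CpG islands. S100A2, which encodes an EF-hand calcium-binding protein of epithelia, had normalized counts of 3259, 3769 and 4186 in empty vector libraries and 3484, 3446 and 3525 in HMGB2OE libraries. SLC25A45, a mitochondrial carrier, followed with 2888, 3485 and 3577 against 3422, 3188 and 3455. The libraries of both conditions overlapped at both genes. LEMD1, a LEM-domain protein, had means of 3284 ± 282 and 3195 ± 108 (SD, n = 3), PRR7 had 3173 ± 317 and 3256 ± 212, and CD22, a surface lectin of B cells, had 3163 ± 369 and 3114 ± 219, for empty vector and HMGB2OE in this order. None of the 5 was called, with adjusted p-values from 0.476 to 0.938 by edgeR's quasi-likelihood test. The most open promoter peak of SOX10, the transcription factor of the neural crest and the melanocyte lineage, was also a member. It had 852, 841 and 886 in empty vector libraries and 830, 874 and 890 in HMGB2OE libraries (adjusted p = 0.967).

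At the low end, 26 members did not pass the filter on low counts and were not tested, and their highest mean normalized count was 11.1. They included 10 genes of the GOLGA6 and GOLGA8 families, 4 NPIP genes, both SULT1A3 and SULT1A4, and both LIMS3 and LIMS4. These are copies in segmental duplications, where reads that fit several places can be lost or split. Their counts are therefore uncertain. The other 2694 members were tested together with all other peaks.

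What HMGB2OE changed was examined next. A call required an adjusted p-value below 0.05 together with a change of 1.5-fold or more in either direction. Among members, 38 were called higher and 31 lower in HMGB2OE cells, which is 2.56% of those tested, against 3.31% of all 150117 tested peaks (1.87% higher and 1.44% lower). Among those with a mean normalized count of at least 30, CST2, CORO2A and NHS had the largest rises and IL24, ZSCAN31, NFE2L1 and PIK3C2G the largest falls, and TMPRSS15, with a lower mean, fell further than these. Called members were spread over 38 and 31 genes, with 16 chromosomes in each direction. With a log2 fold limit of 0.32, 91 members were higher and 62 lower (all peaks, 3.36% and 2.85%), and with no fold limit 96 and 66 (all peaks, 3.44% and 3.03%). With offsets for the GC content of peaks, the split was 24 higher and 30 lower, against 1.74% and 1.32% of all peaks. The median GC content was 54.4% in members called higher, 48.6% in those called lower and 50.8% in the others. The part of GC content in the calls was not tested beyond these offsets.

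The share called fell with CpG content among promoters. It was 1.36% in promoters with a CpG ratio of 0.4 to 0.6, with 8 higher and 7 lower, 0.354% in CpG-rich promoters, with 23 higher and 15 lower, and 0.0657% in promoters with coding start sites on both strands, with 1 higher and 0 lower. It was 3.61% in peaks that were not promoters of these kinds. Level moved with these shares. Among peaks with mean normalized counts of 30 to 100, 3.5% of members, 2.84% of CpG-rich promoters and 4.18% of other peaks were called. Between 100 and 300, the shares were 3.2%, 1.11% and 4.52%, and between 300 and 1000 they were 0.537%, 0% and 1.4%. At 1000 or more, 0 of 149 members, 0 of 3082 CpG-rich promoters and 0.0542% of other peaks were called by edgeR's quasi-likelihood test. The most open called members were BEST1 and SLC41A3, and no called member had a mean above 513.

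**Figure D2:**
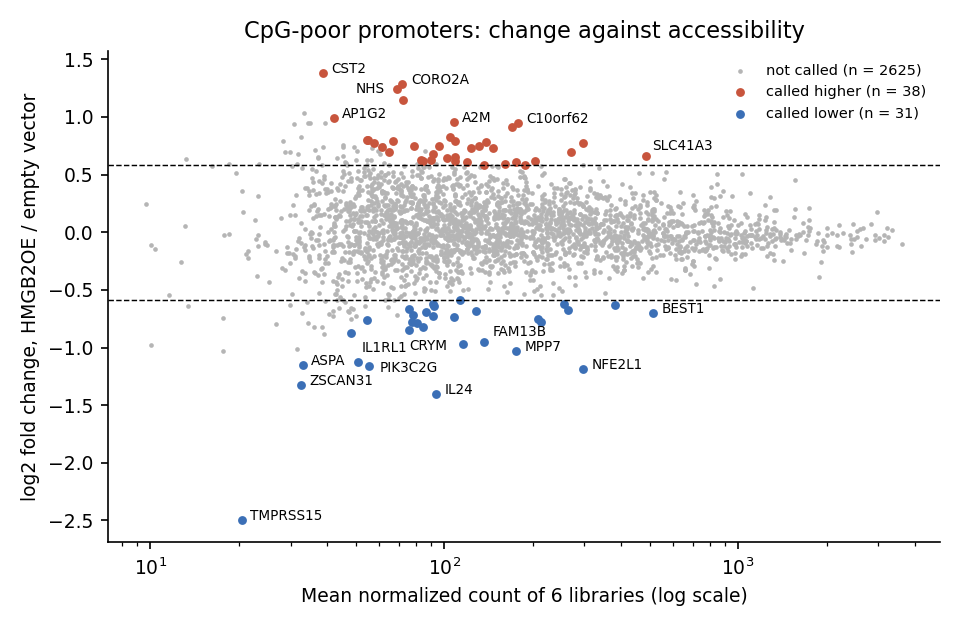
log2 fold change of HMGB2OE over empty vector cells against the mean normalized count of 6 libraries (log axis) for the 2694 tested CpG-poor promoters; dashed lines mark a fold change of 1.5. The 38 promoters called higher and the 31 called lower all have means at or below 513.

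The fold changes of members were centred near 0. Their median log2 fold change was 0.01, against -0.005 over all tested peaks, and 90% of members lay between -0.42 and 0.49. The median was -0.04 in promoters with a CpG ratio of 0.4 to 0.6, -0.08 in CpG-rich promoters and -0.11 in those with start sites on both strands. Between the conditions, the 3 libraries did not overlap at 387 members with higher and 291 with lower counts in HMGB2OE, which is 25.2% of members and near the 25.1% of all tested peaks. In CpG-rich promoters the corresponding numbers were 446 and 2258. Members held 1.97% to 2.05% of the counts of each library. The log2 ratio of counts in CpG-poor to counts in CpG-rich promoters was -3.52, -3.48 and -3.44 in empty vector libraries and -3.39, -3.45 and -3.37 in HMGB2OE libraries. The third empty vector library and the second HMGB2OE library overlapped, and the difference of 0.08 between the means compares with an SD of 0.04 within conditions.

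At each of the 69 called members, the libraries of the conditions did not overlap, as at 25.1% of all tested peaks. Calls were made on these same counts, so the separation adds no support to them. CORO2A encodes a coronin, an actin-binding protein. Its promoter (chr9:98172487-98172988) had normalized counts of 37.5, 43.0 and 44.5 in empty vector libraries and 95.2, 108 and 105 in HMGB2OE libraries, a log2 fold change of 1.29 ± 0.20 (SE; adjusted p = 0.000193). NHS, named for Nance-Horan syndrome, acts on actin and cell shape. Its internal promoter (chrX:17635070-17635571) rose from 48.6, 32.7 and 43.3 to 100, 103 and 85.6 (1.24 ± 0.21, adjusted p = 0.000562). At both genes the lowest HMGB2OE library was above the highest empty vector library, and each call held under all 15 alternatives of test, scaling, filter and libraries.

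The largest rise, at CST2, rested on few counts. CST2 encodes a salivary cystatin, an inhibitor of cysteine proteases. The promoter (chr20:23826672-23827173) had 27.8, 13.8 and 24.6 in empty vector libraries and 73.1, 45.0 and 48.4 in HMGB2OE libraries, a log2 fold change of 1.38 ± 0.32 (adjusted p = 0.00736). Without HMGB2OE replicate 1 or without empty vector replicate 2 it was not called, with adjusted p of up to 0.0995. CST2 belongs to a cluster of close copies of cystatin genes, but 0% of its peak lay in words of 31 bases shared with other peaks. Whether the peak shares sequence with the genome outside peaks was not tested. AP1G2, a subunit of a clathrin adaptor complex that is unrelated to the transcription factor AP-1, rose from 32.0, 33.6 and 18.7 to 72.3, 45.0 and 50.7 (0.99 ± 0.29, adjusted p = 0.037). Its call was lost under 5 of 15 alternatives, including each of DESeq2, the GC offsets and the fits without HMGB2OE replicate 1, HMGB2OE replicate 3 or empty vector replicate 3.

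A2M encodes alpha-2-macroglobulin, a plasma inhibitor of proteases. Its promoter (chr12:9115796-9116297) had 55.6, 97.2 and 64.4 in empty vector libraries and 157, 135 and 138 in HMGB2OE libraries, a log2 fold change of 0.95 ± 0.18 (adjusted p = 0.00153). The call held under all 15 alternatives. C10orf62 and C15orf62, both little studied, rose by log2 fold changes of 0.94 ± 0.15 and 0.91 ± 0.14. SSUH2 rose from 75.7 ± 12.03 to 133 ± 25.7 (SD, n = 3), a call lost without HMGB2OE replicate 1. ART1, a mono-ADP-ribosyltransferase, rose from 40.2 ± 3.53 to 70.2 ± 13.9 and lost its call under 8 of 15 alternatives, among them the fits without HMGB2OE replicate 1 or 3 and without any 1 of the empty vector replicates. Of the less steep rises, TRIM29, SLC4A4, a sodium bicarbonate cotransporter, and F2RL2, a protease-activated receptor, were also called under every alternative, and they are named after their values were seen.

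The fall with the smallest p-value among members was at NFE2L1, which encodes a bZIP factor that drives proteasome genes. The promoter (chr17:48055577-48056078, with 89 exonic and 0 coding bases) had 403, 425 and 412 in empty vector libraries and 184, 194 and 164 in HMGB2OE libraries, a log2 fold change of -1.19 ± 0.11 (adjusted p = 3.28e-07). The libraries of each condition lay close together and far from the other condition. IL24, a cytokine of the IL-10 family that was first found through melanoma differentiation, fell further. Its promoter (chr1:206897176-206897677) had 156, 150 and 103 in empty vector libraries and 50.2, 48.4 and 56.3 in HMGB2OE libraries (-1.40 ± 0.19, adjusted p = 4.21e-05). Both calls held under all 15 alternatives.

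MPP7, a scaffold of cell junctions and polarity, had 236, 238 and 233 at its upstream promoter (chr10:28334101-28334602) in empty vector libraries and 89.3, 133 and 126 in HMGB2OE libraries, a log2 fold change of -1.03 ± 0.14 (adjusted p = 5.77e-05). The first HMGB2OE library was the lowest, and all 3 were below the empty vector libraries. Of the MPP7 peak, 10.2% lay in words of 31 bases shared with other peaks, as did 9.32% of the CRYM peak. CRYM, which binds thyroid hormone in the cytosol, fell from 154 ± 15.03 to 78.1 ± 16.2 (SD, n = 3; -0.97 ± 0.17), and FAM13B, a protein with a GTPase-activating domain, fell from 181 ± 7.499 to 93.4 ± 13.2 (-0.95 ± 0.15). PIK3C2G, a lipid kinase, had 66.7, 75.7 and 87.8 in empty vector libraries and 27.2, 40.9 and 34.9 in HMGB2OE libraries (-1.16 ± 0.24, adjusted p = 0.00317). These 4 calls held under all 15 alternatives.

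The calls of 4 other falls depended on the libraries used. ZSCAN31, a zinc finger gene, fell from 46.4 ± 7.66 to 18.8 ± 7.72 (SD, n = 3; -1.33 ± 0.34, adjusted p = 0.0159), and the call was lost without HMGB2OE replicate 1, HMGB2OE replicate 2 or empty vector replicate 3. ASPA, the enzyme that cleaves N-acetylaspartate, fell from 45.2 ± 4.25 to 20.9 ± 9.28 and lost its call under 6 of 15 alternatives: both fits with GC offsets, and those without HMGB2OE replicate 1 or 2 or without empty vector replicate 2 or 3. IL1RL1, the receptor of IL-33, fell from 69.8 ± 14.1 to 31.9 ± 5.28 and was not called without empty vector replicate 2. NEDD4, a ubiquitin ligase, fell from 62.8 ± 12.1 to 33.8 ± 5.86 and lost its call under 9 of 15, including each fit that left out a library.

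The largest fitted fall belonged to TMPRSS15, the intestinal enteropeptidase, whose mean count was under the minimum of 30 set for named promoters and which was named after its values were seen. It had 38.9, 33.6 and 32.8 in empty vector libraries and 4.25, 9.17 and 4.50 in HMGB2OE libraries, a log2 fold change of -2.50 ± 0.46 (adjusted p = 0.000992). The call held under the 14 alternatives that kept the peak, and 9.96% of the peak lay in words shared with other peaks.

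**Figure D3:**
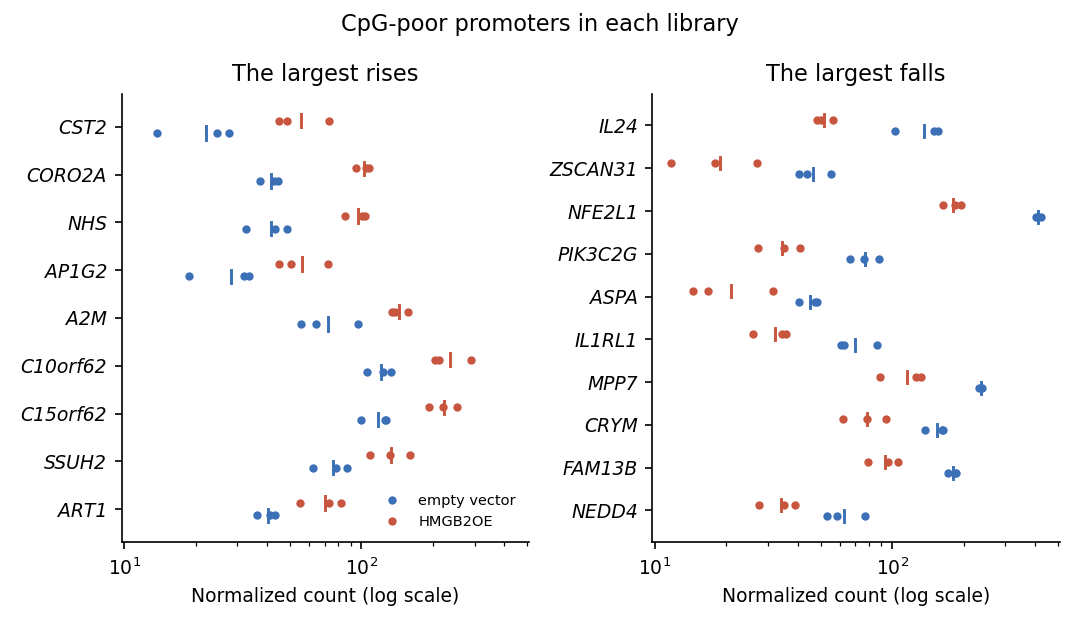
Normalized counts (log axis) of each of 3 empty vector and 3 HMGB2OE libraries at 9 of the 10 CpG-poor promoters with the largest rises and at the 10 with the largest falls among called members with a mean of at least 30; short vertical lines are condition means. Absence of overlap between the conditions was part of the choice of these promoters. The points of NFE2L1 go from between 403 and 425 to between 164 and 194.

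The sequence of the members was then searched for short words of transcription factor sites on both strands, none of which the choice of members used directly. The GC box (GGGCGG, read by SP factors), the ETS word (CCGGAA), the core of the cyclic AMP response element (TGACGT) and the palindromic E-box (CACGTG) each hold a CpG, so a low CpG ratio makes them rarer. The GC box was present in 23.3% of members, 88.5% of CpG-rich promoters and 74.9% of all promoters, and the ETS word in 8.75%, 35.6% and 31.4%. TGACGT was present in 7.5% of members and 13.8% of CpG-rich promoters, and CACGTG in 6.62% and 13.2%. Words without CpG were the other way round. The AP-1 word was present in 688 members (25.3%), against 3.92% of CpG-rich promoters, 8.25% of all promoters and 27.8% of all peaks. The TATA word was present in 19.0% of members, 5.11% of CpG-rich promoters and 7.9% of all promoters. GATAA, the word of GATA factors, was present in 40% and 15.4% of CpG-poor and CpG-rich promoters, ACAAAG, the word of SOX and TCF factors, in 34.4% and 14.8%, and the E-box CATGTG, which MITF can bind, in 26.5% and 8.24%. CCAAT, the word of NF-Y, was present in 46.0% of CpG-poor and 39.7% of CpG-rich promoters. CATTCC, the word of TEAD factors, was present in 29.5% of members and 18.3% of all promoters. For all words the shares in members were within 9 percentage points of those in all peaks. GC content differed between the classes as well, and its part in these shares was not tested.

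**Figure D4:**
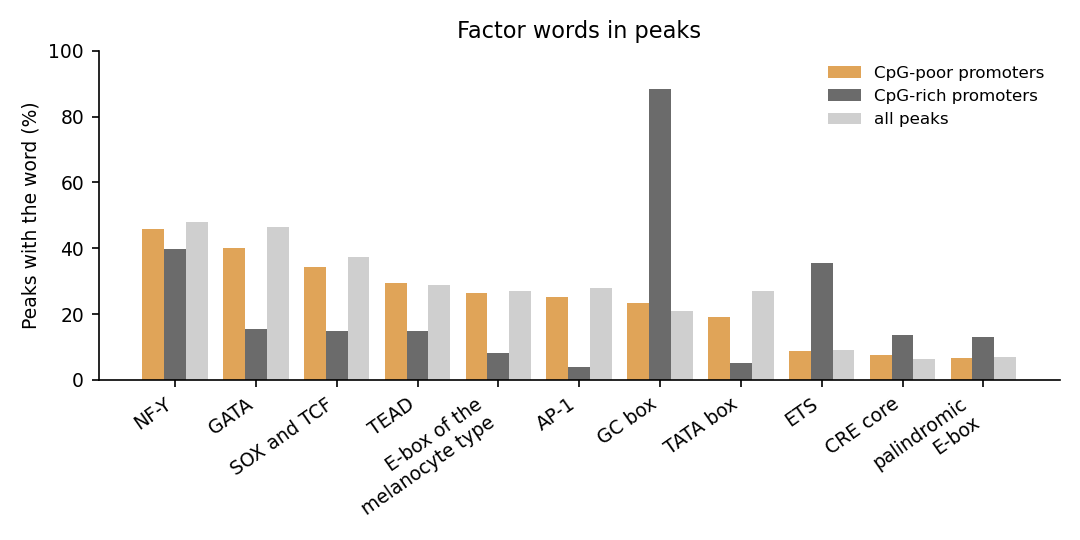
Percent of CpG-poor promoters, CpG-rich promoters and all peaks that hold each factor word on either strand; NF-Y stands for CCAAT, the melanocyte type of E-box for CATGTG and the palindromic one for CACGTG. The bars of CpG-poor promoters follow those of all peaks, and the GC box stands at 23.3% in CpG-poor and 88.5% in CpG-rich promoters.

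Members with an AP-1 word were more open. Their median normalized count was 190, against 122 for members without it, and the share with the word was 18.1%, 20.1%, 27.6% and 35.3% in groups of 680 members each from the least to the most open. For the TATA word the order was reversed, with 23.1% in the least open and 14.6% in the most open group. Between the conditions the AP-1 word was present in 14 of 38 members called higher (36.8%), 6 of 31 called lower (19.4%) and 25.3% of uncalled members. The median log2 fold change was 0.00 for members with the word and 0.02 for those without. The GC box was present in 4 members called higher (10.5%), 2 called lower (6.45%) and 23.7% of uncalled members. Its share was 19% in the least open and 29.9% in the most open group. The ETS word was present in 2 called higher (5.26%), 0 called lower and 8.99% of uncalled members.

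A TATA box works at a set distance upstream of the start site, so the position of the word was read as well. Of 1582 members whose peak covered the bases around the start site, 28 (1.77%) had a TATA word that began 40 to 20 bases upstream of it, against 5 to 9 in each of 7 other windows of 21 bases. In CpG-rich promoters the number was 91 of 7562 (1.203%), against 1 to 14 in the other windows. Among the 28 were GJB1, a gap junction protein, with a mean normalized count of 802, SLC2A3, a glucose transporter, with 658, PLAT, tissue plasminogen activator, with 626, and MYLK, the myosin light chain kinase, with 517. The chemokine gene CXCL8, the stromelysin gene MMP10 and the cytokine gene LIF also had one, with 222, 201 and 196. Of the 28, 1 was called, a share near the 3.31% of all peaks. It was MGP, which encodes matrix Gla protein, an inhibitor of calcification. Its promoter, with the TATA word at -30, had 93.1, 58.5 and 65.5 in empty vector libraries and 126, 120 and 111 in HMGB2OE libraries (0.75 ± 0.18, adjusted p = 0.0123). The call was lost without HMGB2OE replicate 1 or empty vector replicate 2.

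Gene lists for lineages and functions were read next, each by its counts beside 3.31% of all peaks called. The lists differed in how far their genes use CpG-poor promoters. Of genes with a promoter peak, 8 of 10 keratin and cornified envelope genes had a member, but 10 of 64 guidance and neuronal genes. The corresponding numbers were 5 of 27 for AP-1 genes and 3 of 18 for cancer-testis antigens. Genes of pigmentation and the melanocyte lineage had 14 tested members, with 0 called higher and 1 lower, and a median log2 fold change of 0.02. The 1 called was BCL2A1, an anti-apoptotic BCL2 relative that MITF activates in melanoma. Its promoter (chr15:79971013-79971514) had 260, 291 and 235 in empty vector libraries and 143, 173 and 152 in HMGB2OE libraries, a log2 fold change of -0.75 ± 0.13 (adjusted p = 0.000542) that held under all 15 alternatives. The most open of the list was ERBB3, a receptor of neuregulin, with 831, 892 and 888 against 1038, 894 and 960 (adjusted p = 0.335), and its conditions did not overlap.

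Keratins and genes of the cornified envelope had 9 tested members, with 1 called higher and 0 lower. The 1 called was TGM3, the epidermal transglutaminase, which rose from 131, 145 and 207 to 258, 250 and 233 (0.62 ± 0.14, adjusted p = 0.00732) and was not called with GC offsets or without empty vector replicate 1 or 2. KRT80 was the most open, with 1360 ± 75.2 and 1307 ± 53.7 (SD, n = 3). SPRR2D, a cornified envelope gene outside the list that was noted after its values were seen, fell from 463 ± 46.0 to 299 ± 17.8 (-0.63 ± 0.11). It has close copies in the SPRR2 family, and its call was lost without empty vector replicate 2. The 10 members of S100 genes had the highest median level of any list, 901, and 0 were called in either direction by edgeR's quasi-likelihood test.

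Cytokines and chemokines had 12 tested members with 0 higher and 1 lower, which was IL24. Their median log2 fold change was 0.02, and IL16 was the most open with 797 ± 87.3 and 810 ± 41.8 (SD, n = 3). Genes whose symbols are IL and a number, a group formed after the values were seen, had 28 tested members. Of these, 0 were called higher and 3 lower, namely IL24, IL1RL1 and IL17RE, a receptor of IL-17C. Among all tested peaks, 1.44% were called lower. Symbols that begin with C and a number, grouped in the same way, had 28 tested members with 3 higher and 0 lower. Receptors and surface proteins of immune cells had 15 tested members and 0 calls, with CD22 as the most open. For collagens, integrins and other matrix genes the number was 17, with 1 higher, MGP, and 1 lower, TNXB. TNXB, the matrix glycoprotein tenascin-X, fell from 286, 347 and 344 to 221, 213 and 177 (-0.68 ± 0.12, adjusted p = 0.000866). The gene has a partial copy nearby, but 0% of the TNXB peak lay in words shared with other peaks. Whether the peak shares sequence with the genome outside peaks was not tested. SPARC was the most open matrix member, with 1307 ± 163 and 1344 ± 59.5.

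Plasma proteins of the liver had 13 tested members with 1 higher, A2M, and 0 lower, and a median log2 fold change of 0.15. The most open was F5, coagulation factor V, with 204, 221 and 259 in empty vector and 255, 253 and 284 in HMGB2OE libraries, which overlapped (adjusted p = 0.349). Guidance and neuronal genes had 11 tested members and 0 calls, with a median of 0.13. These members belong to 10 of the 64 listed genes with a promoter peak, so most promoters of the list are not covered. SCN2A, a neuronal sodium channel, was the most open with 331 ± 27.0 and 343 ± 3.27 (SD, n = 3). Matrix proteases and serpins had 20 tested members and 0 calls, with PLAT on top at 611 ± 79.7 and 642 ± 62.0. Contractile and muscle genes had 9 tested members and 0 calls, with a median of -0.12 and with CALD1, an actin-binding regulator of contraction, as the most open at 798 ± 93.0 and 852 ± 76.4. Subunits and direct output genes of AP-1 had 6 members and 0 calls, with PLAU, urokinase, at 563 ± 72.7 and 554 ± 17.5. Cancer-testis antigens had 3 members, led by MAGEA4 with 357 ± 34.1 and 381 ± 47.1, and olfactory and taste receptors had 12, led by the sweet and umami receptor gene TAS1R3 with 191 ± 27.7 and 221 ± 34.7. Neither list had a call. At an adjusted p under 0.05 with no fold limit, 1 pigmentation member was higher and 1 lower, and 1 of the olfactory and taste receptors was higher.

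Many members belonged to genes that also have a CpG-rich promoter. Of the tested members, 1276 (47.4%), in 1061 genes, shared their gene with a CpG-rich or both-strand promoter peak at a median distance of 19.1 kb. The partners had a median normalized count of 689, against 135 for these members. Of the members with a partner, 15 were called higher and 13 lower (2.19%), and of the 1418 without a partner, 23 were higher and 18 lower (2.89%). Among the partners of the 28 called members, 0 were called by edgeR's quasi-likelihood test at a fold change of 1.5, and their log2 fold changes ranged from -0.32 to 0.56. Calls were rare in partners generally: 2 of the partners of all 1276 members and 0.354% of CpG-rich promoters were called, so the 0 of 28 is near that share. At an adjusted p under 0.05 with no fold limit, 2 of these partners differed, those of AP1G2 (0.56, adjusted p = 0.0376) and MPP7 (-0.32, adjusted p = 0.0423), each in the direction of the member. The difference between a member and its partner was not tested.

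NFE2L1 is one such gene. Its CpG-rich promoter lies 7.59 kb upstream (chr17:48047983-48048484) and had means of 3045 ± 281 in empty vector and 2952 ± 168 in HMGB2OE libraries (SD, n = 3), a log2 fold change of -0.05 ± 0.07, beside -1.19 ± 0.11 at the CpG-poor promoter. At PER2, a repressor of the circadian clock, the CpG-poor peak had 256, 277 and 277 in empty vector and 151, 159 and 163 in HMGB2OE libraries (-0.78 ± 0.12, adjusted p = 0.000194). The CpG-rich promoter of PER2, 1.45 kb away, had 964 ± 68.4 and 982 ± 59.7. FAM13B has its promoters 1.15 kb apart, with log2 fold changes of -0.95 ± 0.15 at the CpG-poor one and -0.10 ± 0.09 at the CpG-rich one. At TCF7, a nuclear effector of Wnt signalling, the CpG-poor promoter fell from 98.6 ± 22.1 to 57.0 ± 10.2 and the CpG-rich promoter had 598 ± 30.2 and 673 ± 15.3. The TCF7 call was lost without HMGB2OE replicate 1, HMGB2OE replicate 3 or empty vector replicate 3.

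The members that rose had partners with values on both sides of 0. Log2 fold changes of the partner were 0.56 ± 0.17 at AP1G2, 0.41 ± 0.15 at PDE8B (adjusted p = 0.107), a phosphodiesterase gene, and 0.38 ± 0.13 at SLC4A4 (adjusted p = 0.0613). SLC41A3, a magnesium transporter, rose from 311, 374 and 440 to 581, 526 and 680 (0.66 ± 0.11, adjusted p = 0.000611) and was not called without HMGB2OE replicate 3 or empty vector replicate 1, and its CpG-rich promoter had -0.07 ± 0.08. NHS, with its promoters 260 kb apart, had 420 ± 70.0 and 435 ± 0.705 at the CpG-rich one. PC, pyruvate carboxylase, rose from 49.4 ± 7.05 to 84.1 ± 10.6 at a promoter much less open than its CpG-rich one, which had 2878 ± 225 and 2930 ± 109, and the call of PC was lost without HMGB2OE replicate 1 or 2 or empty vector replicate 2.

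**Figure D5:**
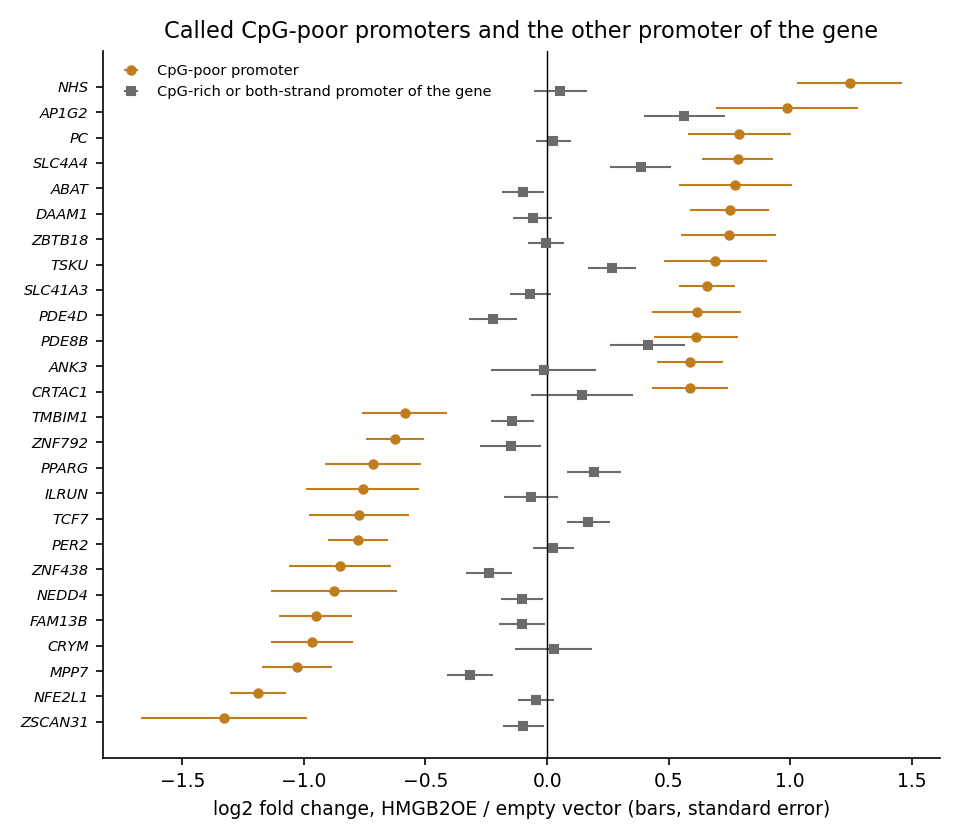
log2 fold change of HMGB2OE over empty vector with its standard error (3 libraries per condition) for 26 of the 28 called CpG-poor promoters whose gene also has a CpG-rich or both-strand promoter peak, and for that partner. CpG-poor promoters lie beyond 0.58 on either side and partners between -0.32 and 0.56.

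In 12 genes a called member stood beside 15 uncalled ones, whose log2 fold changes ranged from -0.51 to 0.20. The difference between members of a gene was not tested, and at ASPA and PIK3C2G the uncalled member had -0.43 ± 0.27 and -0.48 ± 0.24, on the same side of 0 as the called one. Of the 4 CpG-poor promoters of ANK3, the ankyrin of axon initial segments, 1 rose from 130 ± 7.91 to 194 ± 14.2 (SD, n = 3; 0.59 ± 0.14). Its call was lost with the loess scaling, with GC offsets and without HMGB2OE replicate 2 or empty vector replicate 2. The other 3 had log2 fold changes of 0.09 to 0.20. EMP1, an epithelial membrane protein, had a member with 2775 ± 178 and 2657 ± 201 and a second one further downstream that fell from 158 ± 22.3 to 98.9 ± 4.05, a call lost without empty vector replicate 2. At PPARG, the nuclear receptor of fat cell formation, the log2 fold changes of 3 members were -0.02 ± 0.16, -0.51 ± 0.18 and -0.72 ± 0.20, of which the last was called and was lost under 8 of 15 alternatives, among them the fits without HMGB2OE replicate 1, 2 or 3 or empty vector replicate 1 or 2. No gene had 2 called members. SMAD3, a mediator of TGF-beta signals with 4 members, and the 5 members of ADGRG1 had 0 calls.

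Called members had a peak called in the same direction nearby more often than uncalled members had, though most had none. Whether the same holds for called peaks in general was not tested. Within 50 kb, 11 of 38 members called higher (28.9%) had another peak called higher and 3 had one called lower, and 9 of 31 called lower (29.0%) had another peak called lower and 2 had one called higher. Of uncalled members, 9.79% had a higher and 9.37% a lower neighbour. ABHD12, a lysophospholipid hydrolase, had 8 lower and 0 higher among 45, and MPP7 had 3 lower among 8 with a median log2 fold change of -0.50. At NFE2L1, IL24, CRYM, FAM13B, BCL2A1, BEST1 and TNXB, 0 neighbours were called by edgeR's quasi-likelihood test. BEST1, a chloride channel of the retinal pigment epithelium, was the most open called member, with 662, 661 and 587 in empty vector and 462, 356 and 351 in HMGB2OE libraries (-0.70 ± 0.11, adjusted p = 0.000134). As at every called member, its libraries did not overlap, and its call held under all 15 alternatives.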

How the data were processed

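ATAC-seq libraries of A375 cells, 3 with empty vector and 3 HMGB2OE, were grouped by their labels. The authors trimmed reads with Trim Galore 0.6.7 and cutadapt 4.0, aligned them to hg38, used Picard to drop duplicates and MACS2 to call peaks, merged the peaks into 1 set and deposited raw counts per peak and library from featureCounts. Whether reads were shifted for Tn5, and how reads with several alignments were treated, is not given in the sources used here. Peaks were called against a public melanocyte dataset. This could affect which weak promoters, and which promoters open in melanocytes, are in the table. Peak starts were read as 1-based. Some starts are 0, so coordinates may be off by 1 base.

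Counts of all peaks were fitted with edgeR 4.0.16 in R 4.3.3 (filterByExpr, TMM, quasi-likelihood F test, HMGB2OE against empty vector, no covariate), with Benjamini-Hochberg adjustment over all 150117 tested peaks. The threshold for a call was 0.05 in adjusted p and 1.5 in fold. Standard errors were obtained as |log2 fold change| / sqrt(F). To normalize, each library's counts were scaled by its TMM-corrected total to the average library. TMM places the centre of the fold changes near 0, so a change shared by most peaks would not be seen. The intervals cover the spread between libraries, and counting error limits promoters with few counts.

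The alternatives were other scalings, DESeq2 1.42.0, other filters on low counts, a block for the replicate number, offsets for GC content, each library left out, and other fold, CpG and distance limits. Of these, 15 applied to each named promoter. Named promoters are the 10 largest rises and falls among called members with no overlap between conditions and a mean count of at least 30, the 5 most open, the called and the most open member of each gene list, and those at the CpG limit. Other promoters were picked for naming once their values had been seen. The members and gene lists were chosen with earlier results of these data known. Sequences were read from hg38. A few promoters and sequences covered by these rules are not reported here.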

Additional observations from a re-analysis of the deposited data

How the results depend on the processing

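Members called higher and lower numbered 38 and 31, or 1.41% and 1.15% of those tested, against 1.87% and 1.44% of all peaks. With a log2 fold limit of 0.32 in place of 0.58 they were 91 and 62 (all peaks, 3.36% and 2.85%). With no fold limit they were 96 and 66 (all peaks, 3.44% and 3.03%). With GC content offsets they were 24 and 30 (all peaks, 1.74% and 1.32%). Leaving out 1 library gave 23 to 46 higher and 20 to 31 lower. The shares of all peaks then also moved, from 1.21% to 1.98% higher and from 1.03% to 1.48% lower. The fewest higher calls came without HMGB2OE replicate 1 (23), HMGB2OE replicate 3 (25) or empty vector replicate 2 (25), and the fewest lower calls without empty vector replicate 2 (20), which leaves fewer samples in the fit. Other scalings gave 32 to 45 higher and 28 to 34 lower (all peaks, 1.78% to 2.08% and 1.24% to 1.78%). Both other filters on low counts gave 38 and 31 (all peaks, 1.83% to 1.92% and 1.41% to 1.5%). DESeq2 gave 28 and 23 (all peaks, 1.42% and 1.13%). CpG limits of 0.3 and 0.5 gave 1970 and 3199 tested members in place of 2694, with 32 and 41 higher and 26 and 34 lower. A distance of 250 bp gave 1980 tested members, with 28 higher and 24 lower. The replicate block gave 45 and 33 (all peaks, 2.13% and 1.59%), and with GC offsets 31 and 32 (all peaks, 1.98% and 1.44%). Same-numbered libraries had correlations of -0.09, 0.18 and 0.12 in their deviations from the condition means, so the numbers were not taken as pairs. Not every library correlated best with its own number. The median log2 fold change of members ranged from 0.01 to 0.03 without 1 library, and the log2 ratio of CpG-poor to CpG-rich counts differed by 0.06 to 0.10 between conditions. Of the 69 called members, 22 (10 higher, 12 lower) kept their call under every alternative that could be fitted, 10 lost it in at least 1 of every 2, and 0 reversed. The cause of the lost calls was not tested. Depth limits members with mean counts under 100, where standard errors are largest.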
